A study of Rattus norvegicus with 12 samples.

Results

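The G2 and mitosis genes are a set of 39 genes, chosen by symbol, that encode the kinases, motors and structural proteins of late cell cycle. Each member was taken from the rows whose array annotation carried that symbol alone, and the brightest row was used where a gene had several. All 39 were found among the 22093 genes of the table. The cells were TRL1215, a line labelled as rat liver, and the compound was perfluorooctanoic acid (PFOA), a fluorinated surfactant. RNA came from 4 groups of 3 arrays each: passage-matched control cells without PFOA, and the exposed groups T10, T50 and T100, kept in PFOA at 10, 50 and 100 µM. All groups were grown in William's E medium with 10% serum and passaged every week, and the exposed groups received fresh PFOA at each change. The labels give an exposure of 38 weeks, and the protocol says up to that time. Whether the arrays of a group came from cultures kept apart is not said, so the p-values speak only of the spread among these arrays. The series title is about features of tumour cells acquired during long PFOA exposure, and the comparisons ask whether genes of cell division differed with exposure.

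A cell that has copied its DNA enters mitosis when cyclin B binds the kinase CDK1 and the complex is activated. Mitotic kinases and kinesin motors then build the spindle, the kinetochore attaches each chromosome to it, and the spindle checkpoint holds the cell until every chromosome is attached. The anaphase-promoting complex then ends mitosis by marking cyclin B and the separation inhibitor for destruction. Most of these genes are transcribed in a peak in G2 and M, so their RNA level in a culture is commonly read as a sign of how many cells are dividing.

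The values are on a log2 scale, whose base was inferred from their range, and no sequencing depth applies. The number of arrays limits the precision. Set against the label of liver, hepatocyte genes were at background: of 19 hepatocyte markers measured, 0 were above the background of the negative-control probes in any group, and of 8 biliary and epithelial markers only the keratin Krt8 was. Of 12 fibroblast and stellate markers, 5 were above background (Vim, Col1a1, Col1a2, Col3a1 and Acta2), and the mean of this list ran from 7.00 to 7.13 on the control arrays, 6.77 to 7.08 in T10, 6.82 to 7.07 in T50 and 7.47 to 7.82 in T100. Against control, 2 of the 12 were called: the smooth-muscle actin gene Acta2 changed by -2.21 at T10 (adjusted p = 0.0114) and by 2.04 at T100 (adjusted p = 0.0134), and the collagen gene Col1a1 by 2.36 at T100 (adjusted p = 0.00712), with a mean of 7.61 in T10 and 7.19 in control. Of 10 endothelial markers 1 (Tek) and of 12 leukocyte markers 1 (Cd14) was above background. Tek was lower at T10 by limma on both scales (-0.64, adjusted p = 0.0258, and -0.53 after the scaling described next, adjusted p = 0.014), and the leukocyte gene Cd3e, below background in all groups, was called lower at T10 (-0.55, adjusted p = 0.00111) and T50 (-0.38, adjusted p = 0.00482). The part of these genes in the results below was not tested. The T10 arrays had a narrower range than the others, with a mean 95th percentile over genes of 9.42, against 9.57 in T50, 9.66 in T100 and 9.57 in control. A second version of the table, in which all 12 arrays were given 1 common distribution (quantile scaling), is therefore described beside the deposited values. Among the 4581 genes above background in a group, the median change at T10 was -0.09 on the deposited values and 0.05 after quantile scaling, so the choice of scale moves weak changes across 0.

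The mean log2 levels of the 39 members over the 12 arrays ran from 4.85 to 15.80, and since the signal also depends on the probes, these are no measure of how much RNA 1 gene gives beside another. Of the 39, 36 were above background in at least 1 group and 33 in all 4, whereas 20.7% of all genes were above background in a group. The 3 members that were not were the phosphatase gene Cdc25c, the kinase gene Aurkb and the centromeric histone gene Cenpa. Above a mean of 12 lay 4 members (Mki67, Plk1, Ccna2 and Ect2), and 3 of these held 1 identical value on 3 or more arrays, as described under each gene. Since the RNA came from whole cultures, fewer cells in G2 and mitosis cannot be told apart from less of this RNA per cell.

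In cells kept in 10 µM PFOA, 36 of the 39 members had a change below 0 against control on the deposited values and 2 above 0, with a median of -0.14. A change below 0 was common on that scale, and 75.2% of the genes above background had one, with a median of -0.09. In all, 2 members passed the test (limma, Benjamini-Hochberg over all genes), where 0.869% of all 22093 genes did (0.715% as lower): the survivin gene Birc5 fell by 0.43 on the log2 scale and the checkpoint kinase gene Bub1 by 0.34. The other 37 did not pass. Of those, Dlgap5 changed by -0.83 (adjusted p = 0.0705), Kif20a by -0.66 (adjusted p = 0.19) and Ube2c by -0.55 (adjusted p = 0.0905). In 17 members all 3 T10 arrays lay below all 3 control arrays, against 10.6% of all genes. Among the 36 members above background, 15 did so (41.7%), against 25.3% of the genes above background.

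After quantile scaling the picture at T10 was different. The median change of the members was -0.0047, with 18 above 0 and 21 below. The T10 arrays lay below all control arrays in 5 members (8.44% of all genes) and above them in 5 (8.12% of all genes). Among the 36 members above background these were 13.9% lower and 13.9% higher, against 7.90% and 21.9% of the genes above background. The 5 lower members were Birc5, Bub1b, Kif20a, Dlgap5 and Ube2c, and the 5 higher were Ccna2, Pbk, Nuf2, Ect2 and Mki67. Neither Birc5 (-0.30, adjusted p = 0.164) nor Bub1 (-0.15, adjusted p = 0.384) passed on this scale. The only member called was Mki67, whose deposited value is constant and is dealt with below, where 1.09% of all genes were called.

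The members were also set beside genes of like brightness. Below a mean level of 6 the 6 members had a median change at T10 of -0.07, with 5 below 0, against 0.0036 for 18417 genes on the deposited values, and -0.02, against -0.0058 after scaling. Among the 811 genes with a mean level between 8 and 10, the median change at T10 was -0.11 on the deposited values, and the 9 members in that band had a median of -0.28, all 9 below 0. On the quantile-scaled values the same genes had a median of 0.07 and the 9 members -0.11, with 8 below 0. Between 10 and 12 the 8 members had a median of -0.21, against -0.10 for 442 genes on the deposited values, and 0.0042, against 0.12 after scaling. Between 6 and 8 the 12 members were close to the other 1912 genes on both scales, at -0.11 against -0.10 on the deposited values and 0.0061 against 0.02 after scaling. Above 12 the 511 genes had a median of 0.00 on the deposited values and 0.27 after scaling, and the 4 members -0.02 and 0.41.

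At 50 µM, 1 of the 39 members passed the test, where 1.31% of all genes did (0.742% as higher): the checkpoint gene Mad2l1 rose by 0.65. The median change was -0.06, with 27 members below 0 and 12 above. All 3 T50 arrays lay below the control arrays in 7 members (Aurka, Birc5, Bub1b, Kif20a, Tpx2, Prc1 and Ube2c), where 7.29% of all genes and 12.6% of the genes above background did. They all lay above in 3 (Ccnb2, Pbk and Mad2l1), where 9.75% of all genes and 15.5% of those above background did. After quantile scaling Mad2l1 was again called (0.66, adjusted p = 0.0111), together with Mki67, where 2.07% of all genes were called.

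At 100 µM none of the 39 members passed the test on the deposited values (limma, with 6 at an unadjusted p under 0.05), where 1.46% of all genes did. The median change was 0.03, with 24 members above 0 and 14 below, and the changes ran from -0.18 to 0.34. All 3 T100 arrays lay above the control arrays in 7 members (Ccna2, Nek2, Nuf2, Cenpa, Tpx2, Ect2 and Anln), where 10.7% of all genes did, and Birc5 alone had all of them below, where 7.39% did. Among the 36 members above background, 6 had all T100 arrays above control (16.7%), fewer than the 22.9% of the genes above background, and 1 had all below (2.78%, against 8.47%). After quantile scaling Mki67 was the 1 member called, where 2.36% of all genes were. These comparisons with control share the same 3 control arrays.

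**Figure D1:**
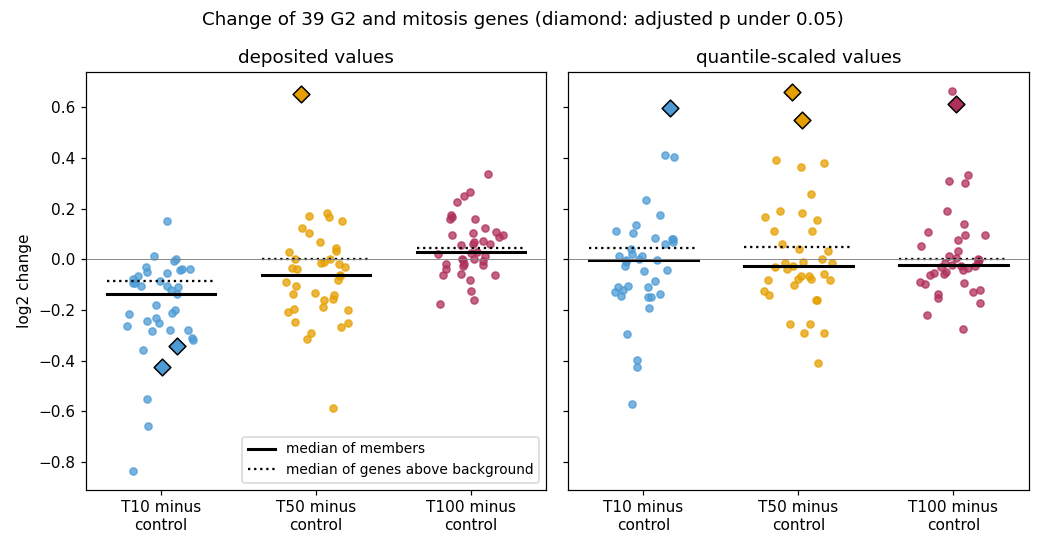
Change of each of the 39 genes against control (log2, vertical axis) at the 3 doses, on the deposited values (left) and after quantile scaling (right), with diamonds for genes called by limma and bars for the medians of the members and of the genes above background. On the deposited values the T10 median lies at -0.14 and the T100 median at 0.03, and after scaling all 3 medians lie within 0.03 of 0.

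The exposed groups were also set against each other. Relative to T10 cells, T100 cells had higher values of 37 of 39 members on the deposited values, with a median of 0.22, where 3746 of the 4581 genes above background were higher, with a median of 0.15. Of these, 3 passed the test (Bub1, Ttk and Dlgap5), where 3.08% of all genes did (2.73% as higher), and in 21 all 3 T100 arrays lay above all 3 T10 arrays, where 14.1% of all genes did. Among the 36 members above background, 3 were called (8.33%), against 10.1% of the genes above background, and 19 had no overlap (52.8%), against 35.4%. After quantile scaling 0 members passed (limma, with 2 at an unadjusted p under 0.05), where 1.58% of all genes did, and the median was 0.01. Calls against T10 that appeared when 1 array was left out concerned Ccnb1, Ccnb2, Anln and Tpx2 (without T10 replicate 2), Pbk, Ndc80 and Tpx2 (without T50 replicate 3), Bub1b and Prc1 (without T100 replicate 2) and Birc5 (without T100 replicate 1). T50 cells differed from T10 cells in Bub1 and Mad2l1, which were higher at T50 on both scales, where 2.01% of all genes were called on the deposited values (1.74% as higher) and 1.15% after scaling. T100 cells had less Mad2l1 RNA than T50 cells on both scales, the 1 member called, where 1.16% of all genes were called on the deposited values (0.502% as lower) and 1.62% after scaling. The F test for any difference among the 4 groups called Bub1 (adjusted p = 0.0074), Mad2l1 (adjusted p = 0.0114) and Birc5 (adjusted p = 0.0334) on the deposited values, where 3.8% of all genes were called. After quantile scaling the F test called Mad2l1 (adjusted p = 0.014) and Mki67, where 3.85% of all genes were called, and neither Bub1 (adjusted p = 0.0513) nor Birc5 (adjusted p = 0.173).

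**Figure D2:**
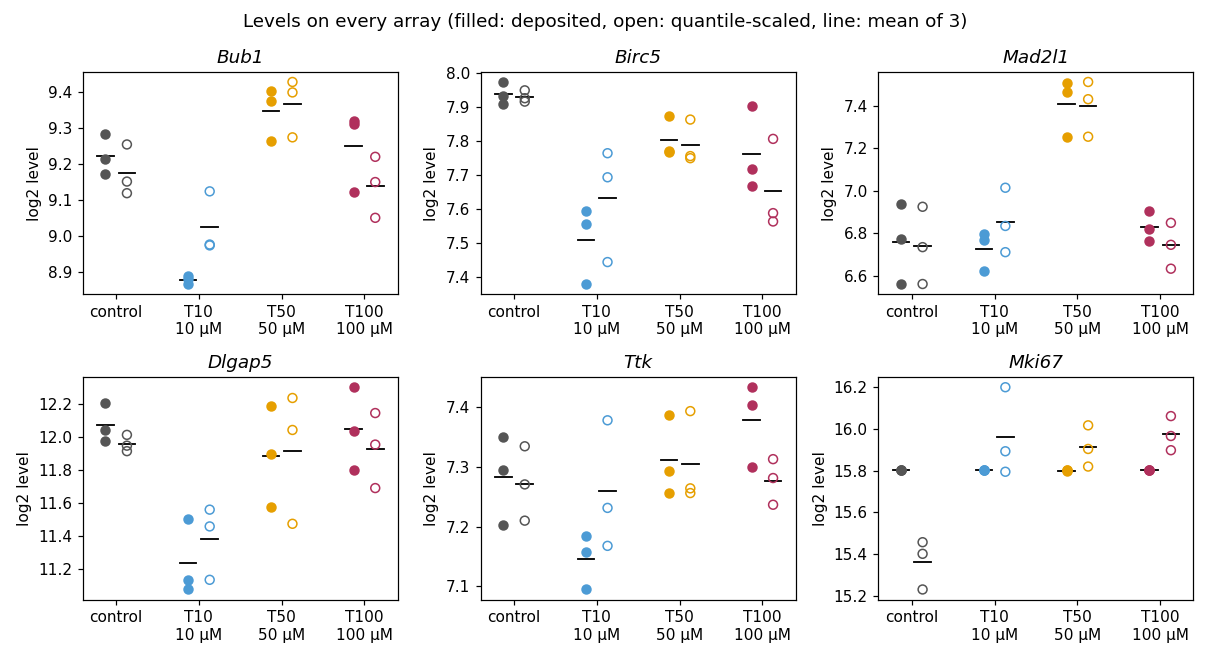
Log2 level of 6 genes on every array by dose, with deposited values filled, quantile-scaled values open and a bar at each mean of 3. Bub1 and Birc5 are lowest in T10 on the deposited values, Mad2l1 stands apart in T50 on both scales, and the deposited value of Mki67 is 15.80 on all arrays.

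Promoters are shown for the 4 members with the smallest p in the F test among those with a RefSeq promoter. On the deposited values the F test called Bub1, Mad2l1 and Birc5 and not Dlgap5. These promoters are on the GRCr8 build and cover 250 bases before to 50 bases after the annotated start of the gene, written in the direction of transcription. Bub1 lies at chr3:135504872-135505171 on the minus strand, Mad2l1 at chr4:97236259-97236558 on the plus strand, Birc5 at chr10:103571896-103572195 on the plus strand and Dlgap5 at chr15:23144127-23144426 on the minus strand. Capitals mark matches to TTTGAA or TTCGAA, the cell cycle homology region through which the DREAM and MuvB complexes are known to act on G2 and mitosis genes in human and mouse cells, and to CCAAT, the box bound by NF-Y.
Bub1: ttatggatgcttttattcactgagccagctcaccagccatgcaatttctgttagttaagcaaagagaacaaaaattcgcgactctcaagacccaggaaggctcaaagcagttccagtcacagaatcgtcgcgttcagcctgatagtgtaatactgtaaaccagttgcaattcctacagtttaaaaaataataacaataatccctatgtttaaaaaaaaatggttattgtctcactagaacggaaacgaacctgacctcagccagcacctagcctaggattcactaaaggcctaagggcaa
Mad2l1: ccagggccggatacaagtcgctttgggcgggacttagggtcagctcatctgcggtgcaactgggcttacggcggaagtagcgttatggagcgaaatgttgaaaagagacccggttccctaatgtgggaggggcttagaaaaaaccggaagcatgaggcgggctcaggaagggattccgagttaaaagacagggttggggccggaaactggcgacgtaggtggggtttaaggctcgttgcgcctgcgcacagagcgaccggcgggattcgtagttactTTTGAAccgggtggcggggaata
Birc5: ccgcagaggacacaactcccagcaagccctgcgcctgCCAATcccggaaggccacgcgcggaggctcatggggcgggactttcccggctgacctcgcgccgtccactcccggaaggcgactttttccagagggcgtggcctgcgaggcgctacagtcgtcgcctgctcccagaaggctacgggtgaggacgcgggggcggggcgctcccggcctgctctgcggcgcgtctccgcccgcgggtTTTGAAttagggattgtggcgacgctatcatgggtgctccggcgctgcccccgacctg
Dlgap5: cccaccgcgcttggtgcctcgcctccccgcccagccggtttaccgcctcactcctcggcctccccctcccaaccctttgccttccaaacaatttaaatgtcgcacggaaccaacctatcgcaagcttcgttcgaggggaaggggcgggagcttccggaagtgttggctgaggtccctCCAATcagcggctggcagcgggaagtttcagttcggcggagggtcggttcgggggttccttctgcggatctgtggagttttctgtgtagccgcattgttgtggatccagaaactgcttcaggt
Mad2l1 held TTTGAA with its first base at position 28 after the start, and no CCAAT. Birc5 held TTTGAA at position -8 and CCAAT at position -213, and Dlgap5 held CCAAT at position -73. Neither motif occurred in the Bub1 window, which says only that these letters are not in it. RefSeq promoters were found for 33 of the 39 members, and the motifs were searched on both strands. TTTGAA occurred in 23 of the 33 (69.7%), against 16.5% of 20287 genes on the array and 18.3% of all 33469 promoters in the table. CCAAT occurred in 24 of the 33 (72.7%), against 37.4% of the genes on the array and 37.5% of all promoters, and 18 of the 33 (54.5%) held it at least 2 times, against 11.8% of the genes on the array. The variant TTCGAA occurred in 2 of the 33 (6.06%), against 1.73% of the genes on the array. A window with a CCAAT box and TTTGAA or TTCGAA was found for 18 members (54.5%), against 7.34% of the genes on the array. In 85 promoters of other G2 and mitosis genes, TTTGAA occurred in 48.2%, CCAAT in 61.2% and TTCGAA in 14.1%. A CCAAT box with TTTGAA or TTCGAA occurred in 40.0% of these 85, so such motifs were common beyond the members. A match is a description of these letters and not evidence that a factor binds there.

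Cyclin B and CDK1 drive entry into mitosis, cyclin A2 acts in S phase and G2, and Cdc25 phosphatases activate CDK1. None of these 5 members passed against control at any dose with all arrays and all genes in the fit. Ccna2, which encodes cyclin A2, had 12.45, 12.22 and 12.21 in control, 12.46, 12.45 and 12.44 in T10, 12.52, 12.47 and 12.40 in T50 cells and 12.50, 12.56 and 12.51 in T100. Control replicate 1 was as high as the T10 arrays, T50 overlapped it too, and only T100 lay wholly above control (0.22 ± 0.06, SE, adjusted p = 0.114). Without control replicate 1, Ccna2 was called higher at T10 (0.23, adjusted p = 0.0469), T50 (0.25, adjusted p = 0.0297) and T100 (0.30, adjusted p = 0.0169). Ccnb2, which encodes cyclin B2, had 10.62, 10.76 and 10.64 in control, 10.59, 10.80 and 10.50 in T10, 10.86, 10.95 and 10.76 in T50 cells and 10.66, 10.67 and 10.63 in T100. Its T50 arrays touched but did not overlap the control arrays (0.18 ± 0.07, adjusted p = 0.412), and T10 and T100 overlapped them. Another probe set with the Ccnb2 symbol was dimmer and moved otherwise, at -0.34 in T10, -0.0010 in T50 and -0.15 in T100. RefSeq places Ccnb2 on chromosome 8, as the ID of the dimmer probe set does, whereas the ID of the brighter one begins with TC01, so what the brighter one reads is uncertain. Of the remaining 3, Ccnb1 and Cdc25c had all T10 arrays below control, with changes of -0.36 and -0.09, and Cdk1 changed by -0.08 at T10 and 0.17 at T100.

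The mitotic kinases build the spindle and set the timing of mitosis. Against control, 0 of these 6 members passed at any dose. Plk1, a kinase for mitotic entry and spindle poles, had 15.63, 15.63 and 15.63 in control, 15.63, 15.63 and 15.38 in T10, 15.63, 15.63 and 15.21 in T50 cells and 15.73, 15.63 and 15.83 in T100. On 8 of the 12 arrays it held the same value, and the 4 others lay on both sides of it. After quantile scaling Plk1 changed by 0.66 ± 0.19 at T100 (adjusted p = 0.114). On that scale the 511 genes with a mean level above 12 had a median change of 0.28 at T100. Ttk, which encodes the checkpoint kinase MPS1, had 7.35, 7.29 and 7.20 in control, 7.18, 7.09 and 7.16 in T10, 7.39, 7.29 and 7.26 in T50 cells and 7.40, 7.30 and 7.43 in T100. The T10 values were the lowest and lay below all others. Ttk was 0.23 ± 0.05 higher in T100 than in T10 (adjusted p = 0.0443), a difference of 0.02 after quantile scaling (adjusted p = 0.945). This call ended when 1 array was left out, for each of 9 arrays: the T10 replicates 1, 2 and 3 (adjusted p = 0.0939, 0.0887 and 0.0973), the T100 replicates 1 and 3 (0.118 and 0.147), the T50 replicates 2 and 3 (0.0647 and 0.0552) and the control replicates 1 and 2 (0.0512 and 0.0701). The other 4 kinase genes (Aurka, Nek2, Melk and Pbk) had changes of -0.29 to 0.17 over the 3 doses, and Pbk was called higher at T50 without T50 replicate 3 (0.22, adjusted p = 0.0461).

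The chromosomal passenger complex corrects faulty attachments, with Aurora B (Aurkb) as its kinase and survivin (Birc5) and borealin (Cdca8) as its partners. Birc5 had 7.97, 7.93 and 7.91 in control, 7.56, 7.38 and 7.60 in T10, 7.77, 7.77 and 7.87 in T50 cells and 7.90, 7.67 and 7.72 in T100. All T10 arrays lay below all arrays of the other groups, and the T50 and T100 arrays also lay below the control arrays. The change was -0.43 ± 0.07 at T10 (adjusted p = 0.0251), -0.13 ± 0.07 at T50 (adjusted p = 0.553) and -0.18 ± 0.07 at T100 (adjusted p = 0.332). After quantile scaling all arrays of the 3 exposed groups again lay below control, at -0.30, -0.14 and -0.28 in order of dose, and none passed. The T10 call on the deposited values ended without T10 replicate 1 (adjusted p = 0.0704) and without control replicate 1 (0.0968), 2 (0.0946) or 3 (0.0664). Cdca8 had 5.54, 5.56 and 5.63 in control, 5.48, 5.56 and 5.52 in T10, 5.54, 5.65 and 5.53 in T50 cells and 5.73, 5.44 and 5.56 in T100, with full overlap of the groups and levels near background. Aurkb, below background, changed by -0.18 at T10, -0.04 at T50 and -0.01 at T100.

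Kinetochore and checkpoint genes held both of the other members called by the F test. Bub1 encodes a kinase that recruits checkpoint proteins to kinetochores. It had 9.28, 9.21 and 9.17 in control, 8.88, 8.89 and 8.87 in T10, 9.40, 9.38 and 9.26 in T50 cells and 9.32, 9.12 and 9.31 in T100. The 3 T10 arrays lay within 0.03 of each other and below the 9 other arrays, which overlapped among themselves. The change was -0.34 ± 0.06 at T10 (adjusted p = 0.0255), 0.12 ± 0.06 at T50 (adjusted p = 0.485) and 0.03 ± 0.06 at T100 (adjusted p = 0.919). Bub1 was 0.47 ± 0.06 higher in T50 than in T10 (adjusted p = 0.00387) and 0.37 ± 0.06 higher in T100 than in T10 (adjusted p = 0.0108). On the quantile-scaled values it had 9.25, 9.12 and 9.15 in control, 9.12, 8.97 and 8.98 in T10, 9.43, 9.40 and 9.27 in T50 cells and 9.22, 9.05 and 9.15 in T100. On that scale 1 T10 array lay within the control range, the difference between T50 and T10 still passed (0.34 ± 0.06, adjusted p = 0.0299) and that between T100 and T10 did not (0.12, adjusted p = 0.517). The call of T10 against control ended without any 1 of its 6 arrays, at adjusted p = 0.0873, 0.0557 and 0.0818 without T10 replicates 1, 2 and 3 and 0.103, 0.0951 and 0.0546 without control replicates 1, 2 and 3.

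Mad2l1 encodes MAD2, the checkpoint protein that blocks CDC20. It had 6.94, 6.77 and 6.56 in control, 6.80, 6.77 and 6.62 in T10, 7.51, 7.46 and 7.26 in T50 cells and 6.82, 6.90 and 6.76 in T100. The 3 T50 arrays lay above all 9 others, and the other 3 groups overlapped. The rise at T50 was 0.65 ± 0.10 (adjusted p = 0.0142), a ratio of 1.57, while T10 (-0.03) and T100 (0.07) stayed near control. Mad2l1 was 0.68 ± 0.10 higher in T50 than in T10 (adjusted p = 0.00923), and lower in T100 than in T50 (-0.58 ± 0.10, adjusted p = 0.0256). After quantile scaling it had 6.92, 6.73 and 6.56 in control, 7.01, 6.83 and 6.71 in T10, 7.51, 7.43 and 7.25 in T50 cells and 6.75, 6.85 and 6.63 in T100, and the same 3 differences passed, at 0.66, 0.55 and -0.66. The call of T50 against control ended without T50 replicate 1 (adjusted p = 0.051), T50 replicate 2 (0.0626) or control replicate 2 (0.0568). That of T100 against T50 ended without T100 replicate 1 (0.0867) or 3 (0.093) and without T50 replicate 1 (0.0919) or 2 (0.0914), and that of T50 against T10 held without each array in turn.

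Cenpf, a large kinetochore and nuclear matrix protein gene and the brightest of this group after Bub1, had 8.64, 8.71 and 8.42 in control, 7.80, 8.65 and 8.36 in T10, 8.63, 8.29 and 8.25 in T50 cells and 8.59, 8.30 and 8.76 in T100. T10 replicate 1 stood alone as the lowest of the 12, and the groups overlapped. The other 5 kinetochore members (Bub1b, Ndc80, Nuf2, Cenpa and Cenpe) did not pass against control at any dose. The checkpoint gene Bub1b and the kinetochore motor gene Cenpe had all T10 arrays below control on the deposited values, with changes of -0.31 and -0.26. The outer kinetochore genes Ndc80 and Nuf2 changed by -0.12 and -0.01 at T10 and by 0.10 and 0.16 at T100.

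The kinesin motors separate the spindle poles, move chromosomes and gather the midzone of the dividing cell. All 5 had changes below 0 at T10 and at T50, and 0 passed. Kif20a, a motor of the midzone and cytokinesis, had 11.70, 11.82 and 11.47 in control, 10.89, 11.20 and 10.93 in T10, 11.28, 11.22 and 10.74 in T50 cells and 11.41, 11.21 and 11.88 in T100. All T10 and T50 arrays lay below all control arrays, and T100 spread across the control range, with the highest of the 12 values in T100 replicate 3. The change was -0.66 ± 0.19 at T10 (adjusted p = 0.19) and -0.59 ± 0.19 at T50 (adjusted p = 0.256). Kif11, the motor that pushes spindle poles apart, had 9.86, 9.85 and 9.73 in control, 9.36, 9.72 and 9.64 in T10, 9.86, 9.72 and 9.39 in T50 cells and 10.18, 9.78 and 10.28 in T100. The T10 arrays were all below control (-0.24 ± 0.15, adjusted p = 0.566), and 2 of 3 T100 arrays were above every other array. Kif23 and Kif4a also had all T10 arrays below control, while Kif2c overlapped it, and these 3 genes changed by -0.28 to -0.10 at T10.

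Among the spindle microtubule proteins, Dlgap5 showed the largest change of the 39 members on the deposited values. It encodes HURP, which stabilizes the fibres that reach the kinetochores, and it had 11.97, 12.21 and 12.04 in control, 11.14, 11.51 and 11.08 in T10, 12.18, 11.89 and 11.57 in T50 cells and 12.03, 11.80 and 12.30 in T100. The T10 arrays lay below the 9 others. The change at T10 was -0.83 ± 0.18 against control, a ratio of 0.561 that did not pass (adjusted p = 0.0705). Against T10, T100 was 0.81 ± 0.18 higher and passed (adjusted p = 0.0423). After quantile scaling the T10 arrays were still below all control arrays (-0.57 ± 0.18, adjusted p = 0.222), and the difference between T100 and T10 was 0.54 (adjusted p = 0.223). The T100 call ended without each of 8 arrays: T10 replicates 1 and 3 (adjusted p = 0.138 and 0.117), T100 replicates 1 and 3 (0.1 and 0.137), T50 replicate 2 (0.0641) and control replicates 1, 2 and 3 (0.0606, 0.0618 and 0.0666). Prc1, which bundles microtubules at the midzone, had 11.16, 11.20 and 11.15 in control, 10.90, 11.13 and 10.88 in T10, 11.14, 11.02 and 10.60 in T50 cells and 11.55, 11.13 and 11.83 in T100. It was highest in T100 replicates 1 and 3, while T100 replicate 2 lay just below the controls, and the change at T100 was 0.34 ± 0.18 (adjusted p = 0.497). Prc1, Tpx2 and Hmmr had all T10 arrays below control and Nusap1 did not, and the last 3 changed by -0.29 to -0.04.

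Cytokinesis splits the cell after the chromosomes have parted, and 0 of its 3 members passed. Ect2, the exchange factor that activates RhoA at the cell equator, had 12.02, 11.95 and 12.03 in control, 11.77, 12.10 and 12.01 in T10, 12.03, 12.03 and 12.03 in T50 cells and 12.21, 12.04 and 12.50 in T100. The same value stood on 4 arrays, the 3 of T50 among them. T100 lay wholly above control (0.25 ± 0.11, adjusted p = 0.396). Anln, which encodes the contractile ring protein anillin, had 10.52, 10.60 and 10.60 in control, 10.45, 10.62 and 10.35 in T10, 10.64, 10.64 and 10.58 in T50 cells and 10.63, 10.61 and 10.66 in T100, with T100 just above the controls (0.06 ± 0.06, adjusted p = 0.784). Racgap1, a partner of Ect2, changed by -0.21 at T10, -0.20 at T50 and 0.09 at T100, and its other probe set changed by -0.20, -0.13 and 0.04.

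Cdc20 activates the anaphase-promoting complex and Ube2c is the ubiquitin-conjugating enzyme that works with it. Cdc20 had 8.47, 8.59 and 8.29 in control, 8.02, 8.32 and 8.17 in T10, 8.41, 8.36 and 8.32 in T50 cells and 8.44, 8.36 and 8.38 in T100. Its T10 arrays overlapped the controls at 1 array (-0.28 ± 0.08, adjusted p = 0.203). Ube2c had 8.47, 8.22 and 8.04 in control, 7.71, 7.75 and 7.61 in T10, 8.03, 8.00 and 7.75 in T50 cells and 8.13, 7.98 and 8.36 in T100. The T10 arrays and the T50 arrays all lay below the control arrays. The change was -0.55 ± 0.13 at T10 (adjusted p = 0.0905), -0.32 ± 0.13 at T50 (adjusted p = 0.387) and -0.08 ± 0.13 at T100 (adjusted p = 0.873). On the quantile-scaled values the T10 change was -0.40 ± 0.11 (adjusted p = 0.169), and the T10 and T50 arrays were again below control.

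Mki67, which encodes the proliferation marker Ki-67, could not be read for change. Its deposited value was 15.80 on all 12 arrays, within 0.01. Quantile scaling gave it 15.40, 15.23 and 15.46 in control, 16.20, 15.89 and 15.79 in T10, 15.90, 16.02 and 15.82 in T50 cells and 15.90, 16.06 and 15.97 in T100, and so a change of 0.60 at T10 (adjusted p = 0.0194), 0.55 at T50 (adjusted p = 0.0214) and 0.61 at T100 (adjusted p = 0.0121). These differences come from the scaling of the arrays, as the deposited values hold none, and they are not counted as a change of the gene. Top2a, the topoisomerase that untangles sister chromosomes, had 10.87, 10.82 and 10.61 in control, 10.41, 10.82 and 10.75 in T10, 10.98, 10.55 and 10.15 in T50 cells and 10.74, 10.52 and 10.87 in T100. The 4 groups overlapped, and no comparison passed (F test adjusted p = 0.882).

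**Figure D3:**
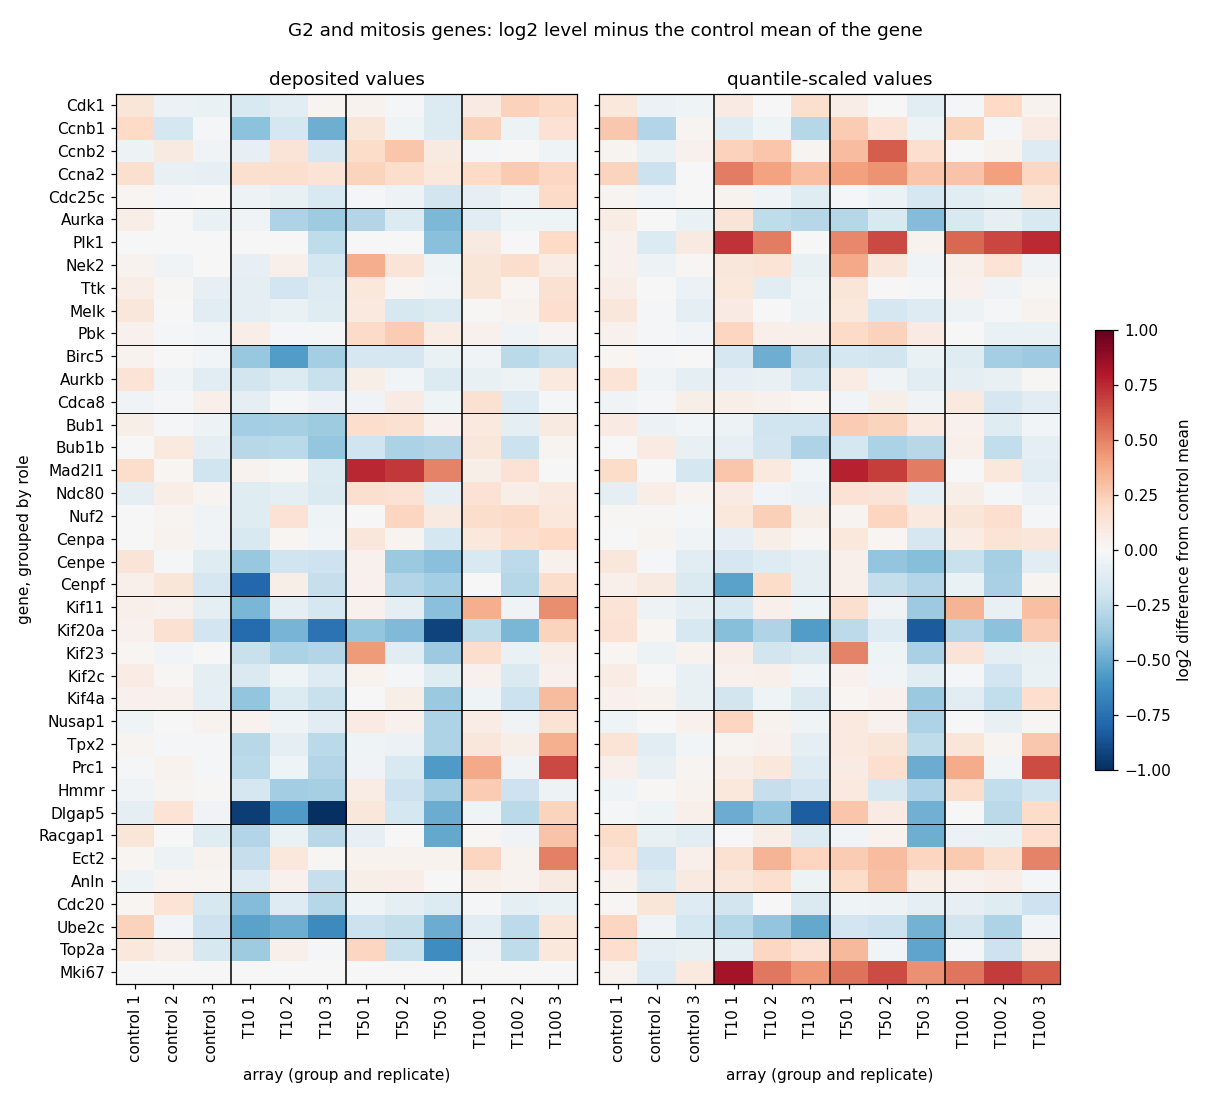
Log2 level of each member minus its control mean, by array and role, on the deposited (left) and quantile-scaled (right) values, with red for higher and blue for lower. The T10 columns are mostly blue on the left and mixed on the right, Mad2l1 is red in all T50 columns on both sides, and T50 replicate 3 is blue in most genes.

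Single arrays stood at one end of their group in many members. Among the 38 members whose values varied, T50 replicate 3 was the lowest of its group in 33 (86.8%), whereas it was the lowest in 42.1% of the genes above background. T50 replicate 1 was the highest of its group in 27 members (71.1%, against 29.6% of the genes above background). In T100, replicate 2 was the lowest in 27 members (71.1%, against 50.0%) and replicate 3 the highest in 22 (57.9%, against 57.7%). Control replicate 3 was the lowest in 25 members (65.8%, against 39.3%) and control replicate 1 the highest in 21 (55.3%, against 39.6%). In T10, replicate 3 was the lowest in 18 (47.4%, against 23.5%) and replicate 2 the highest in 26 (68.4%, against 50.6%). After quantile scaling T50 replicate 3 was the lowest in 34 members and T50 replicate 1 the highest in 23, T100 replicate 2 the lowest in 21 and T100 replicate 3 the highest in 16. On that scale control replicate 3 was the lowest in 18 and control replicate 2 in 16, and control replicate 1 was the highest in 24. T10 replicate 3 was the lowest in 23, and T10 replicate 2 was the highest in 19 and T10 replicate 1 in 17. The mean of the 39 members on each array was 8.74, 8.71 and 8.64 in control, 8.46, 8.58 and 8.47 in T10, 8.76, 8.67 and 8.49 in T50 cells and 8.76, 8.64 and 8.84 in T100. The T10 arrays lay below the control arrays, and T50 spanned the range from T10 to control. The group means were 8.70 ± 0.05 for control, 8.51 ± 0.07 for T10, 8.64 ± 0.14 for T50 and 8.75 ± 0.10 for T100 (SD, n = 3 each). On the quantile-scaled values the means were 8.71, 8.60 and 8.61 in control, 8.67, 8.65 and 8.55 in T10, 8.78, 8.72 and 8.49 in T50 cells and 8.69, 8.60 and 8.71 in T100, and the groups overlapped.

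**Figure D4:**
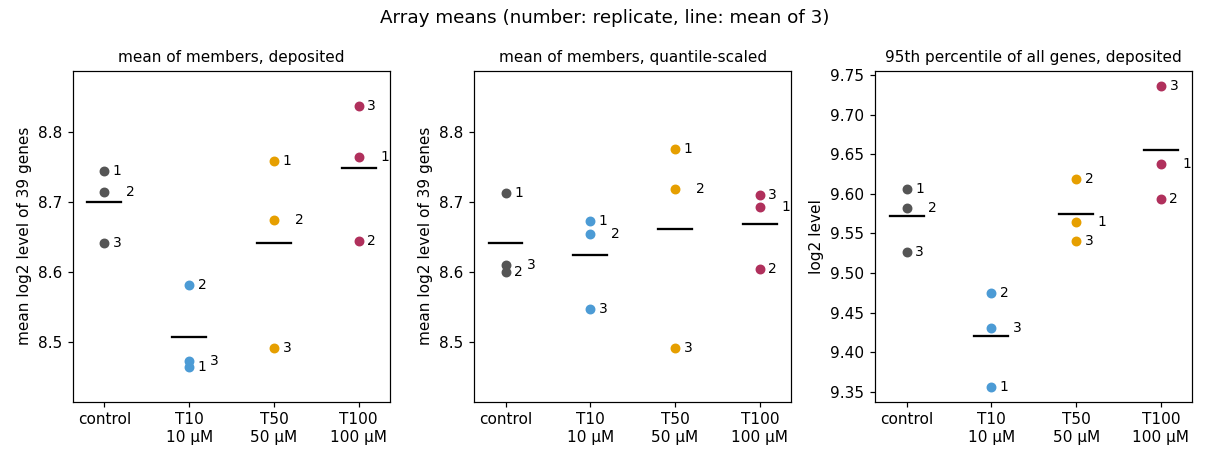
Mean log2 level of the 39 members on each array, deposited (left) and quantile-scaled (middle), and the 95th percentile over all genes (right), by dose, with the replicate number beside each point and a bar at the mean of 3. T10 lies lowest in the left and right panels and within the other groups in the middle one, and T50 replicate 3 is low in both panels of member means.

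Of 94 further genes of G2 and mitosis measured (61 above background), 0 were called against control at any dose by limma on the deposited values. Of all genes 0.869% were called at T10, 1.31% at T50 and 1.46% at T100. At T10 79 of the 94 had a change below 0, with a median of -0.09, as did 75.2% of the genes above background, with a median of -0.09. At T100 67 of the 94 had a change above 0, with a median of 0.05, as did 2831 of the 4581 genes above background, with a median of 0.05. The transcription factors of mitotic genes, 11 measured, had a median of -0.05 at T10. Between T100 and T10, 87 of the 94 had a difference above 0, as did 3746 of the 4581 genes above background. In all, 9 of the 94 were called as higher in T100 (9.57%), where 3.08% of all genes were called (2.73% as higher). Among the genes above background 10.1% were called, higher or lower, whereas the 94 also hold genes below background, Ska1 of these 9 among them. Zwint, a kinetochore scaffold partner, had the largest of these differences, at 10.19 ± 0.02 in T100 and 9.03 ± 0.32 in T10 (SD, n = 3 each), a difference of 1.16 ± 0.14 (adjusted p = 0.00565). It was also higher in T100 than in T50 (0.81, adjusted p = 0.0322), and both differences passed after quantile scaling. The others named by rule were the checkpoint gene Zwilch (0.56), Ska1 (0.31, below background in all groups), the CDK subunit gene Cks1b (0.38), the kinesin gene Kif18a (0.38), the condensin gene Ncapg2 (0.37), the cohesion gene Cdca5 (0.46) and Anapc4 of the anaphase-promoting complex (0.31), and of these 7 none passed after quantile scaling. On that scale the cohesin genes Smc1a (0.26, adjusted p = 0.041) and Smc3 (0.32, adjusted p = 0.0489) were called higher at T50, 2 of the 94, where 2.07% of all genes were. The deposited values gave 0.22 (adjusted p = 0.204) for Smc1a and 0.12 (adjusted p = 0.371) for Smc3. Smc1a averaged 8.58 in control and 8.80 in T50, and Smc3 11.86 and 11.98. On the quantile scale the median change at T50 was 0.05 for genes with a mean level between 8 and 10, and 0.15 between 10 and 12.

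Of 31 DNA replication and G1/S genes, the primase subunit gene Prim1 was the 1 called against control on the deposited values, where 1.31% of all genes were called at T50 and 1.46% at T100. It averaged 10.32 ± 0.05 in T50 and 10.00 ± 0.07 in control (SD, n = 3 each), a rise of 0.32 ± 0.06 (adjusted p = 0.0441), and 10.40 ± 0.02 in T100, a rise of 0.40 ± 0.06 (adjusted p = 0.016). After quantile scaling its T50 rise passed (0.42, adjusted p = 0.0318) and its T100 rise did not (0.33, adjusted p = 0.0755). Calls against control on the quantile scale alone were Pcna, the replication clamp gene, at T10 (0.65, adjusted p = 0.00256) and T50 (0.37, adjusted p = 0.0364), and the thymidine kinase gene Tk1 at T50 (0.80, adjusted p = 0.0487). The thymidylate synthase gene Tyms was called lower on that scale alone at T50 (-0.35, adjusted p = 0.0198) and T100 (-0.36, adjusted p = 0.0162). Between exposed groups, Prim1 was higher in T100 than in T10 by limma on the deposited values alone (0.34, adjusted p = 0.0236), where 3.08% of all genes were called. On the quantile scale alone, Pcna was lower in T100 than in T10 (-0.42, adjusted p = 0.0292), where 1.58% of all genes were called. The replication gene Mcm2 was lower in T100 than in T50 on that scale alone (-0.70, adjusted p = 0.0135), where 1.62% were. Pcna and Tk1 have mean levels above 12, where the median of all genes was 0.27 at T10 and 0.29 at T50 on that scale. Of 12 cell cycle inhibitor genes, 2 fell at T50 on both scales, where 1.31% of all genes were called on the deposited values and 2.07% after scaling. Gadd45a, below background in all groups, was called higher at T50 after scaling (0.25, adjusted p = 0.0481) and not on the deposited values (0.25, adjusted p = 0.106). Cdkn1b, which encodes the CDK inhibitor p27, averaged 6.13 ± 0.06 in T50 and 6.60 ± 0.05 in control (SD, n = 3 each), a change of -0.47 ± 0.07 (adjusted p = 0.0155). It was also lower in T50 than in T10 (-0.56, adjusted p = 0.0052), and T100 was higher than T50 (0.52, adjusted p = 0.0102), with all 3 differences called on both scales. Ccng1, which encodes cyclin G1, changed by -1.01 ± 0.15 at T50 (adjusted p = 0.0144), and by -0.86 after quantile scaling (adjusted p = 0.0296).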

How the data were processed

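RNA of 12 samples of TRL1215 cells was labelled with the Affymetrix WT Plus kit from 100 ng of total RNA, per the labels' protocols. The deposited table holds log2 values for 70580 probe sets on each array, and the authors' background correction, probe summary and normalization are not given in the sources used here. Of these probe sets, 23446 carried 1 gene symbol. The brightest was kept where a gene had several (1182 genes), which left 22093 genes. Background in a group was the mean over its arrays of the 95th percentile of 1153 negative-control probe sets. Differences were fitted with limma 3.58.1 (lmFit and eBayes, prior degrees of freedom 1.71) in R 4.3.3 on all 12 arrays with 4 group means. Tests were two-sided, with Benjamini-Hochberg over all genes at an adjusted p of 0.05. Errors of changes are standard errors of this fit, with n = 3 in each group. Quantile scaling, a covariate, a gene filter, another prior, a mean of probe sets, a replicate block and leaving out each array were tried as alternatives. The steps were tested on simulated data of normal noise with shifts added in T10. These data held neither the narrower range of the T10 arrays nor the shared values of Plk1 and Ect2, so the test does not cover them. Values on every array are given for members called on either scale and for the 2 with the highest mean in each role, and at most 3 called genes of another list in a contrast are named. The members and lists were chosen with earlier results of these data known, so their counts are descriptions. The listed genes Knl1, Anapc11, Btg2 and Tf, among others, were not analysed here.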

Additional observations from a re-analysis of the deposited data

How the results depend on the processing

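With 3 arrays a group, single arrays decided many calls. Leaving out each array in turn gave 0 to 2 members called for T10 against control, 0 to 2 for T50, 0 to 1 for T100, 2 to 4 for T50 against T10, 1 to 5 for T100 against T10, 0 to 1 for T100 against T50 and 1 to 5 in the F test, and medians of -0.19 to -0.13, -0.12 to 0.01 and 0.01 to 0.09 for the 3 doses against control. Quantile scaling gave 1, 2 and 1 members called against control (Mki67 among them at each dose), 0 for T100 against T10 and a T10 median of -0.0047. With the array's 95th percentile added to the model, 0 members were called at T10, 2 at T50 (Mad2l1 and Kif20a), 0 for each pair of exposed groups and 1 in the F test, and the T10 median was 0.0113. The intensity trend with a robust prior called 1 member at T10. Testing only the 4581 genes above background called 4 members at T10 (with Dlgap5 and Ube2c), 1 at T100 (Ccna2), 10 for T100 against T10 and 7 in the F test. With that filter 266 of the 4581 genes were called at T10 and 444 at T100. The numbers of all genes called with it for T100 against T10 and in the F test are not given here. The filter changed both the fit and the adjustment, and their parts were not told apart. The numbers of genes called moved in other settings too. For T10 it was 15 with the 95th percentile in the model, against 192. Quantile scaling gave 457 for T50, against 289, and 521 for T100, against 323. Over all genes that varied, only 2 of 18 same-number pairs of arrays had a correlation over 0.1 (range -0.219 to 0.112). As 18417 of the 22093 genes had a mean level below 6, this does not settle whether the members were paired by replicate number. A replicate block gave 2, 1 and 0 members called against control, 2 for T100 against T10, and ended the Dlgap5 call (adjusted p = 0.0809). With that block the limma call of Mad2l1 at T50 against control held, at adjusted p = 0.00457, against 0.0142 without it. The replicate block with quantile scaling gave 0 at T10, 1 at T50, 1 at T100 and 0 for T100 against T10, with a T10 median of -0.0047. The cause of these shifts was not tested. The constant value of Mki67 and the shared values of Plk1 and Ect2 limit what could be seen in them.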
